A study of Rattus norvegicus with 2 samples.

Results

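Krüppel-like factor (KLF) genes were described in the peak list of 1 ChIP-seq library, a sequencing library of chromatin pulled down with an antibody, from rat myocardium. The 10 genes Klf2, Klf3, Klf4, Klf6, Klf7, Klf9, Klf10, Klf12, Klf13 and Klf15 were chosen from genes whose peaks had already been seen in these data, and every peak with one of these names in the deposited annotation was taken. They held 122 of the 28706 peaks and 10 of the 8094 gene names in the annotation. Because peaks chose the genes, their number, strength and position are given below as a description, with no test. The library came from male Wistar rats with abdominal aortic constriction (AAC), in which a wire and silk ligature above the renal arteries narrow the aorta. The other sample of the model is its input library, for which no values were analysed here, and both samples carry replicate number 3. The antibody is named in the labels by vendor and catalogue number, and its target was taken from the series title to be lactylated lysine 18 of histone H3 (H3K18la), a histone mark made from lactate. No unoperated or stimulated rats were analysed here, so the values describe 1 condition and have no replicate error.

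KLF proteins are transcription factors with a carboxy-terminal set of zinc fingers that bind GC-rich and CACCC-type sequences, a trait they share with the SP factors. One subgroup, which includes Klf2, Klf4, Klf6 and Klf7, often activates genes, another with Klf3 and Klf12 recruits the corepressor CtBP, and the Klf9, Klf10 and Klf13 subgroup recruits the Sin3A corepressor. In the heart and its vessels, Klf2 and Klf4 are known for the response of endothelium to blood flow, and Klf15 for restraining hypertrophic growth of cardiomyocytes and for control of their fuel use.

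Each of the 10 genes had at least 5 peaks, from 5 at Klf3 and Klf4 to 26 at Klf6. Of 23154 protein-coding genes, 27.1% had any peak and 5.20% had at least 5. The median over the 10 genes was 8 peaks with 6987 bp under them, against 2 peaks and 746 bp over the 6274 annotation names of protein-coding genes with a peak. Over the 1203 protein-coding genes with at least 5 peaks, the medians were also 8 peaks, with 4274 bp. Fold enrichment, the authors' ratio of signal at a peak to the caller's local background, had a median of 4.48 over the 122 peaks (quartiles 3.64 and 5.34, range 2.45 to 12.1), against 4.13 over all peaks. It reached at least 6 in 20 of the 122 peaks (16.4%, 95% Wilson interval 10.9 to 24.0%), against 6.31% of the list. These 20 were 6 peaks of Klf13, 5 of Klf2, 3 of Klf9, 2 each of Klf4 and Klf7, and 1 each of Klf3 and Klf6. Thus 7 of 10 genes had a peak of at least 6-fold, where 4.17% of protein-coding genes did, and Klf10, Klf12 and Klf15 had none. That share counts genes without any peak. Among the 1203 protein-coding genes with at least 5 peaks, the strongest peak had a median of 5.92-fold and an upper quartile of 6.72-fold. Peaks were also long: 11 of 122 (9.02%, 5.11 to 15.4%) spanned at least 2000 bp, against 1.79% of the list, and the median width was 554.5 bp against 375 bp. The intervals cover counting error only, and neighbouring peaks of 1 gene are not independent.

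**Figure D1:**
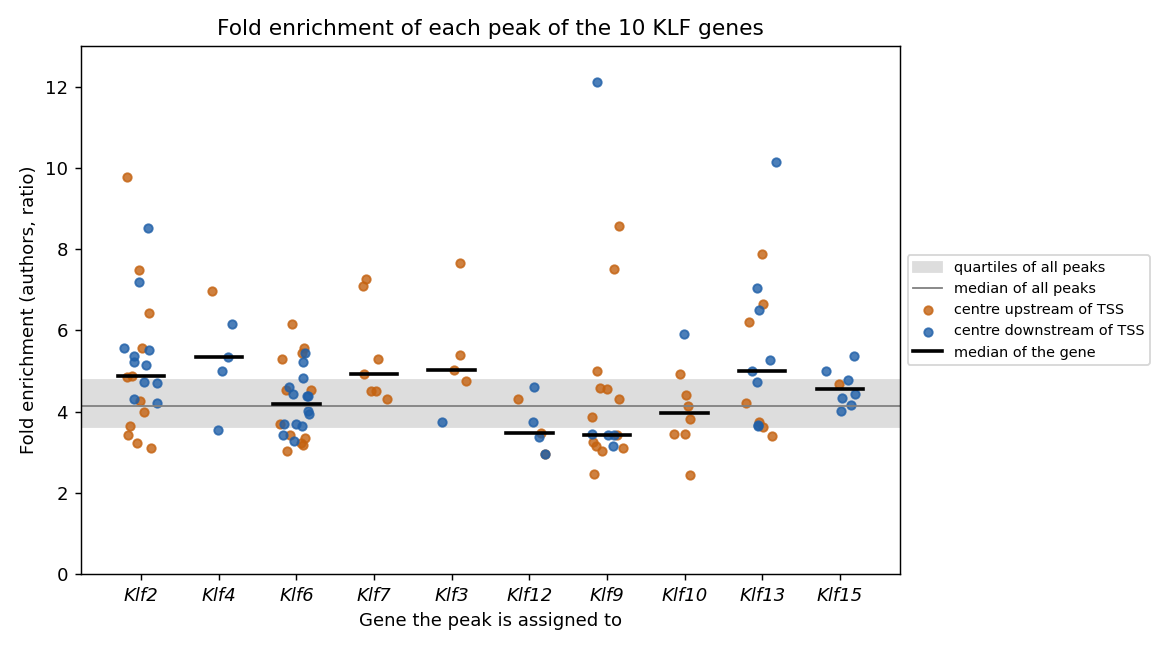
Fold enrichment (y axis, the authors' ratio) of each of the 122 peaks, by gene (x axis), coloured by the side of the TSS on which the peak centre lies; black bars are gene medians, and the grey band and line are the quartiles and median of all 28706 peaks. Klf9 had the strongest peak, 12.1, but a gene median of 3.44, while all 8 peaks of Klf15 lay between 4.02 and 5.38.

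Most of the peaks lay between genes, and few were of promoter class. The annotation gives each peak a class and the signed distance from its centre to the nearest transcription start site (TSS). Intergenic peaks were 67 of 122 (54.9%, 46.1 to 63.5%) against 41.1% of all peaks, introns held 46 (37.7%) against 43.8%, exons 3, and the promoter class 6 (4.92%, 2.27 to 10.3%) against 9.78%. Upstream of the TSS stood 67 peaks (54.9%) against 43.2% of the list, and 65 (53.3%) lay beyond 10 kb from it against 57.4%. No difference of these shares was tested.

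More of the KLF genes had a peak over the TSS than a peak of promoter class. A promoter-class peak stood at Klf6, Klf10, Klf12 and Klf15, 4 of 10 genes, against 9.87% of protein-coding genes. With the centre within 1000 bp of the TSS, whatever the class, Klf4 and Klf13 joined them for 6 of 10, against 17.1%. The body of a peak covered a TSS at Klf3, Klf4, Klf6, Klf9, Klf10, Klf13 and Klf15, 7 of 10, against 6.73%. At Klf10 this was only the start of a second transcript, near the edge of the peak. Peak centres on both sides of the TSS within 3 kb were found at 8 of 10, all but Klf3 and Klf7, against 4.63%. Klf6 had such a peak on each of 2 start sites, which makes 8 peaks over a TSS. In these 8 the summit, the point of highest signal, stood off the TSS by 77 bp at Klf3 to 962 bp at Klf6, upstream in 5 peaks and downstream in those of Klf4, Klf9 and Klf15. The shares of protein-coding genes above count genes without any peak, whereas each of the 10 genes had at least 5. Counted per peak, 6.56% of the 122 lay over a TSS, against 6.21% of the list. Centres within 1000 bp of a TSS were 8.2% of the 122, against 19.4% of the list.

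**Figure D2:**
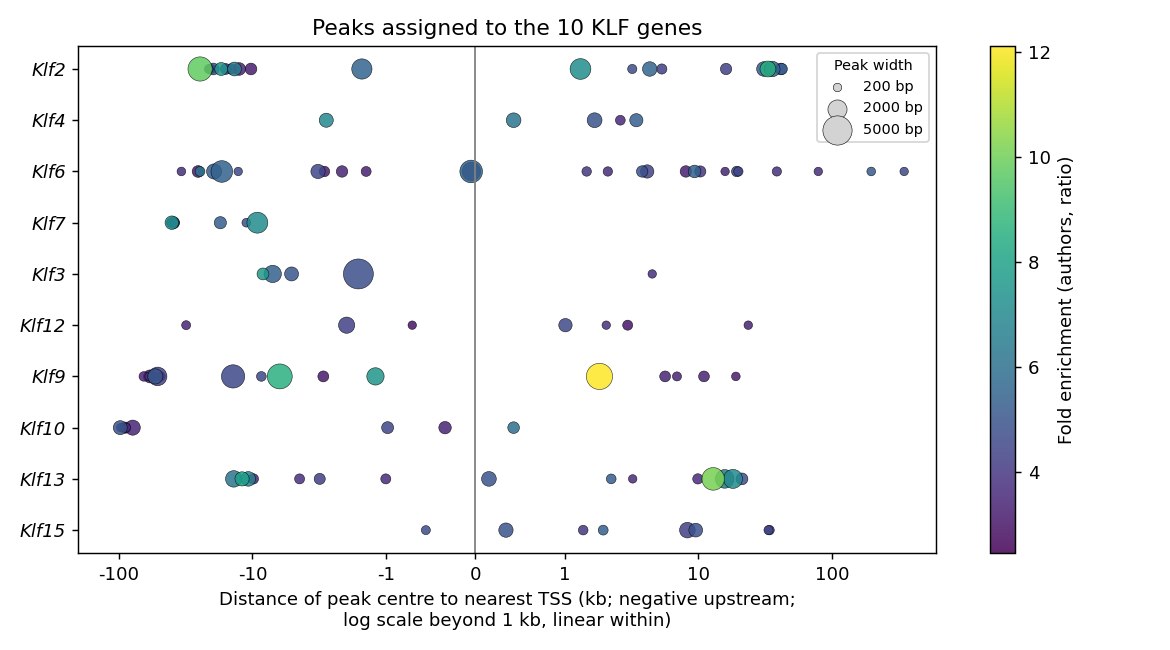
Each circle is 1 peak of the gene on the y axis, placed by the distance of its centre from the nearest TSS (x axis, kb, negative upstream, logarithmic beyond 1 kb), sized by width and coloured by the authors' fold enrichment. Klf7 had peaks only upstream, from 9.19 to 40.8 kb, whereas Klf2, Klf6, Klf9 and Klf13 had them on both sides at many distances.

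Among the genes of the activating subgroup, Klf2, which encodes a flow-induced factor of endothelial cells, had 23 peaks with 20.90 kb under them, spread over 68.7 kb of chromosome 16. Its strongest peak, at 9.77-fold (19247995 to 19251356), was also its widest at 3362 bp and lay 24.6 kb upstream of the TSS. Next came 8.51-fold 33.2 kb downstream (19191196 to 19192502) and 7.49-fold 17.1 kb upstream (19241757 to 19242554). So the 3 strongest peaks were all distant. Beside the TSS stood a peak of 7.18-fold, 2401 bp wide, in intron 2 of the gene (19222521 to 19224921). Another of 5.57-fold, 2278 bp wide, lay just upstream (19225419 to 19227696). The TSS at 19225037 fell in the gap between them, so Klf2 had broad peaks on either side and none on the start itself. The farthest peak, 42.1 kb downstream, had 5.23-fold (19182655 to 19183186).

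It was 1 of 6 downstream peaks, of 4.70-fold to 8.51-fold, that the annotation classes in introns 21 and 22 of another transcript, ENSRNOT00000018960, which has no gene name of its own in the list. They carry the name Klf2 by the distance to its TSS. In the gene order of the GRCr8 assembly Klf2 stands between Eps15l1 and Ap1m1, and the peaks named Ap1m1 lay on the upstream side, 13.4 kb beyond the last Klf2 peak and up to 8.61-fold. Whether the 6 intronic peaks belong to Klf2 or to its neighbour was not tested. Of 6 endothelial marker genes 5 also held peaks, where 27.1% of protein-coding genes had one. So did 5 of 8 cardiomyocyte, 1 of 4 fibroblast, 2 of 4 smooth muscle and pericyte and 1 of 4 immune markers. The marker lists were chosen with earlier results of these data known. Which cells carry the Klf2 peaks was not tested.

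Klf4, a factor of endothelium and smooth muscle also known from stem cell reprogramming, had 5 peaks packed into 7.15 kb of chromosome 5. The strongest, 6.96-fold, lay 2.81 kb upstream (72289988 to 72290963). A peak of 6.17-fold covered the TSS with its summit 303 bp downstream (72286700 to 72287780). The other 3 continued through the gene, at 5.0-fold in exon 3 (72285436 to 72286547), 3.55-fold in intron 4 (72284881 to 72285229) and 5.35-fold in exon 5 (72283812 to 72284641). Together they held 4348 bp, and the upstream peak was the strongest.

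Klf6, an early-response factor of wounded vessels and fibroblasts, had the most peaks of the 10 genes, 26 with 18.08 kb under them. Most were moderate, with a median of 4.20-fold, and 1 reached 6-fold. The annotation counts distances to the starts of 2 transcripts on chromosome 17, at 67904674 and 67945037. Each start was covered by a peak of promoter class. That on the inner start was strong and broad at 5.56-fold and 2893 bp (67903275 to 67906167). That on the outer start, centred 45 bp from it, was weak at 3.02-fold over 1916 bp (67944125 to 67946040). The strongest peak, 6.17-fold, stood 24.7 kb upstream of the outer start (67969526 to 67969880). Peaks of 5.45-fold lay 16.9 kb upstream of the inner start, inside intron 5 of the longer transcript (67920308 to 67922936), and 9.38 kb downstream of it (67894923 to 67895663). The farthest peak carried the name from 346 kb away, at 4.61-fold (67558302 to 67558501), and the peaks spanned 421 kb in all.

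Klf7, known for roles in neurons and adipocytes, had 7 peaks on chromosome 9, all of them upstream. The strongest were 7.27-fold at 40.1 kb (70827552 to 70828433) and 7.09-fold at 9.19 kb (70795882 to 70798323), the latter the nearest to the TSS and the widest at 2442 bp. Then followed 5.30-fold at 17.4 kb (70804951 to 70805629) and 4.93-fold at 11.1 kb. The farthest, at 40.8 kb, had 4.32-fold, and none of the 7 fell below that value. Klf7 was the 1 gene of the 10 with no peak within 3 kb of an annotated TSS.

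The CtBP-binding repressors differed in strength. Klf3, a repressor with roles in fat and blood cells, had 5 peaks of 3.75-fold to 7.65-fold on chromosome 14, and the widest peak of all 122. This peak of 5261 bp (45164191 to 45169451, 4.75-fold) was wider than 99.91% of the list, ties counted in equal parts. The annotation classes it as intergenic, with its centre 1.61 kb upstream, yet it covered the TSS, and its summit stood 77 bp upstream of it. Behind it, further upstream, came 5.02-fold at 5.10 kb (45169828 to 45170787), 5.40-fold at 7.06 kb (45171463 to 45173066) and 7.65-fold at 8.34 kb (45173238 to 45173863), so that the farther of these 4 peaks were the stronger. A narrow peak of 3.75-fold lay in intron 1 (45160582 to 45160781). Klf12, first described as a repressor of an AP-2 gene, had 7 weaker peaks with 3476 bp under them on chromosome 15, and its strongest was 4.60-fold in intron 1 (84747081 to 84747938), 1.02 kb downstream. The next were 4.32-fold at 1.98 kb upstream (84749814 to 84751188, its widest at 1375 bp), 3.76-fold in intron 1 (84746375 to 84746574) and 3.48-fold at 31.3 kb upstream, its farthest. Its promoter-class peak, the nearest to the TSS, had 2.95-fold (84749134 to 84749333). Only 1 of the 7 reached a −log10 q of 5, where q is the caller's p-value adjusted over the genome.

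In the Sin3A-binding subgroup, Klf9, a glucocorticoid-induced factor, combined a group of strong peaks at its start with many weak ones far upstream. Its 18 peaks covered 19.65 kb of chromosome 1. The peak of 12.1-fold (240908327 to 240912290), rank 2 of 28706, was classed in intron 1, but it began before the TSS and had its summit 578 bp downstream. Directly upstream stood 7.50-fold at 1.20 kb (240906481 to 240908079) and 8.57-fold over 3571 bp at 6.25 kb (240900450 to 240904020). The fourth in strength, 5.0-fold, was 53.3 kb upstream (240854587 to 240855770). It belonged to a group of 8 peaks, from 48.7 to 64.9 kb upstream, that ranged from 2.46-fold to 5.0-fold. The farthest of these had 3.43-fold, and the gene's median of 3.44-fold was below that of all peaks.

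The 250 bases before the Klf9 start are printed because a peak over its annotated TSS had the strongest signal of the family, and those of Klf15 and Klf6 because peaks also covered an annotated start of theirs and they alone of the 7 available hold CACGTG. Klf3 and Klf4 also had a peak over a start and are described without their letters. The printed bases come from RefSeq on assembly GRCr8, and whether these starts are the same as the rn6 TSS was not tested. The peaks over the rn6 TSS of Klf9 and Klf15 had their summits 578 bp and 299 bp downstream of it, not in the bases before it. Capitals mark CACCC (or GGGTG on the other strand), the core bound by KLF proteins, GGGCGG (or CCGCCC), the GC box of SP proteins, and CACGTG, the E-box bound by clock factors.
Klf9 (GRCr8 chr1:230126396-230126645, plus strand): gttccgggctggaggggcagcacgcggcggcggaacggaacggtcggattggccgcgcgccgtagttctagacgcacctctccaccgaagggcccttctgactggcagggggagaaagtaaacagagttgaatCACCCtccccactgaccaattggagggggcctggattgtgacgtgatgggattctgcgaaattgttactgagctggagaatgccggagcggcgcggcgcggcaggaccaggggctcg
Klf15 (GRCr8 chr4:124522765-124523014, plus strand): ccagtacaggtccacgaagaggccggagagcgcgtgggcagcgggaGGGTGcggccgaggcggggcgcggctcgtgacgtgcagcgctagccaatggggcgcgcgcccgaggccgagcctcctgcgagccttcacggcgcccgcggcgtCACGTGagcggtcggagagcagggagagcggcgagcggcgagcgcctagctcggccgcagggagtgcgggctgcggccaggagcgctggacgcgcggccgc
Klf6 (GRCr8 chr17:69458479-69458728, minus strand): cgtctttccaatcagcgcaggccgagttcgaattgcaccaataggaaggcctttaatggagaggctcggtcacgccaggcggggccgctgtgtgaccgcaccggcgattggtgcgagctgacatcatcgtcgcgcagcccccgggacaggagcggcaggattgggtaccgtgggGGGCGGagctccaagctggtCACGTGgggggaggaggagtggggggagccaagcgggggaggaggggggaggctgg

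Promoter sequence was found for 7 of the 10 genes, Klf3, Klf4, Klf6, Klf7, Klf9, Klf12 and Klf15. Searched on both strands, CACCC was in 4 of the 7 (Klf3, Klf7, Klf9 and Klf15), against 51.3% of 19005 protein-coding promoters of the same length. Klf9 had it once, 117 bases before the start, and Klf3 had 4 matches, the nearest 18 bases before it. GGGCGG was in 2 (Klf6 and Klf7) against 40.3%, and CACGTG in 2 (Klf6, 56 bases before the start, and Klf15, 101 bases) against 6.38%. CCAAT was in 4 (Klf3, Klf6, Klf9 and Klf15) against 35.5%, and TATAAA in 1 (Klf4) against 12.3%. AGAACA, a short core of glucocorticoid receptor sites, was in none of the 7 against 15.0%, which says only that these letters are not in these windows. GC content was 77.2% at Klf15, 67.2% at Klf6 and 63.6% at Klf9, against 39.6% at Klf12 and 43.2% at Klf4, with a median of 54.8% over all promoters.

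Klf13, a factor related to Klf9 with roles in heart development and lymphocytes, had more peaks of at least 6-fold than any of the other 9, 6 of its 15. They formed 2 groups on either side of the Klf13 start rather than on it. Downstream, within intron 1, lay 10.1-fold over 2895 bp at 12.9 kb (124788989 to 124791883), rank 27 of the list, 6.51-fold at 15.8 kb (124786665 to 124788545) and 7.04-fold at 18.2 kb (124784203 to 124786180). Upstream lay 6.65-fold at 10.7 kb (124813575 to 124814647), 7.89-fold at 12.0 kb (124814826 to 124815819) and 6.20-fold at 13.8 kb (124816447 to 124817875). The peak over the TSS, in exon 1, was lower at 5.0-fold (124802666 to 124803756), with its summit 121 bp upstream. The farthest, 21.2 kb downstream, had 4.73-fold (124781828 to 124782440).

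Klf10, a gene induced early by TGF-β, had 8 peaks with 5083 bp under them on chromosome 7, in 2 groups. The first was at the gene and held the strongest peak, 5.91-fold in intron 1, centred 429 bp downstream of the TSS (77161422 to 77162017), with a promoter-class peak of 4.42-fold 0.984 kb upstream (77162811 to 77163453). A promoter-class peak of 3.44-fold (77159441 to 77160153) covered the start of a second transcript, at 77159457. That start lay near the edge of the peak, whose summit stood 423 bp upstream of it. No peak covered the first start, at 77162148. The other group was 5 intergenic peaks from 78.6 to 97.4 kb upstream. These reached 4.93-fold at the far end (77259038 to 77259998) and 4.14-fold beside it (77258465 to 77258664), and the widest of the gene, 1165 bp, had 3.44-fold (77240121 to 77241285). The next named peaks on that side belong to Azin1, 28.5 kb further on.

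Klf15, the cardiac and metabolic factor outside these subgroups, had 8 peaks with 4748 bp under them on chromosome 4. They were even in strength, from 4.02-fold to 5.38-fold, and the gene had none of 6-fold. The strongest stood in intron 1, 1.95 kb downstream (122366860 to 122367219). A peak of 5.0-fold covered the TSS with its summit 299 bp downstream (122364926 to 122365946), next to a promoter-class peak of 4.67-fold (122364407 to 122364669). Intron 3 held 4.79-fold at 9.57 kb (122374205 to 122375130) and the widest, 1255 bp, at 4.33-fold (122372755 to 122374009). The farthest, 34.1 kb downstream, had 4.16-fold (122399040 to 122399353).

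Strongest-peak values of different genes should be compared with the coarseness of the measure in mind. The list has 1838 distinct values of fold enrichment for 28706 peaks, and 114 of the 122 KLF peaks share their value exactly with at least 1 other peak. At 4.99977 alone stood 116 peaks, 4 of them at Klf4, Klf9, Klf13 and Klf15, so single peaks of different genes near that value cannot be ordered. Ordered by strongest peak, the genes were Klf9 (12.1), Klf13 (10.1), Klf2 (9.77), Klf3 (7.65), Klf7 (7.27), Klf4 (6.96), Klf6 (6.17), Klf10 (5.91), Klf15 (5.38) and Klf12 (4.60). With 1 library, no spread over samples shows which neighbours in this order differ. The median of these 10 values was 7.12, against 4.63 over the 6274 annotation names of protein-coding genes with a peak and 5.92 over the 1203 with at least 5 peaks.

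**Figure D3:**
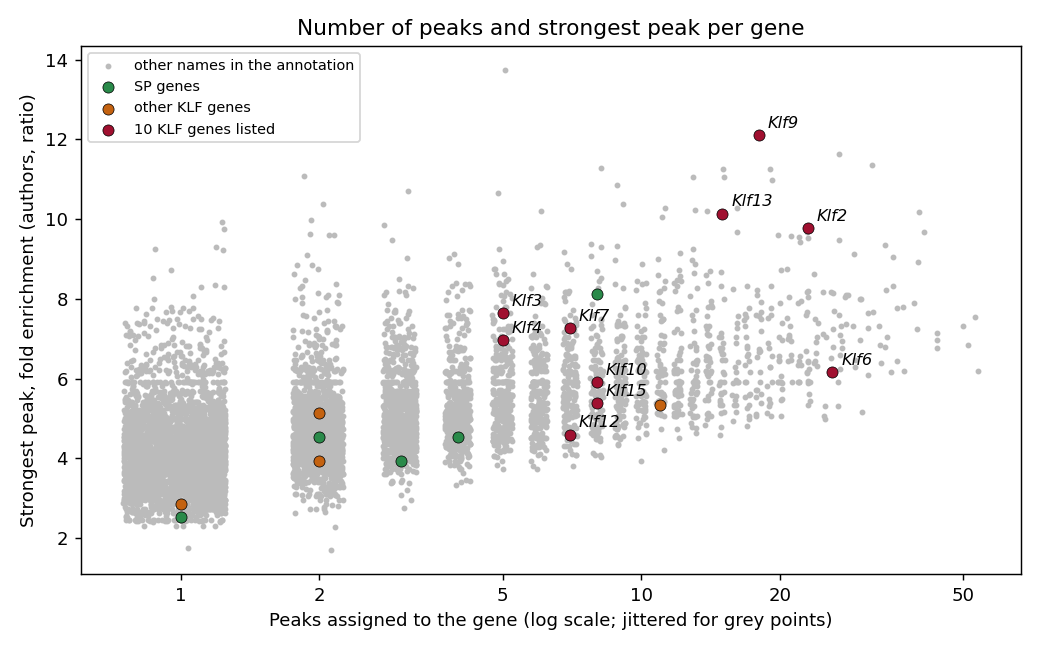
Number of peaks (x axis, log scale) and fold enrichment of the strongest peak (y axis, the authors' ratio) for each gene name with up to 60 peaks; coloured points are the 10 KLF genes, other KLF genes and SP genes. Klf9, Klf13 and Klf2 lie at the upper edge of the cloud with 18, 15 and 23 peaks, and Klf6 lies to the right with 26 peaks and a strongest peak of 6.17.

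By strongest peak, the names most like Klf9 among 6377 that match the RefSeq gene table were Mir23a (13.7) above it and Zbtb16 (11.6), Jade2 (11.3) and Xdh, which encodes xanthine dehydrogenase (11.3), below it. They had 5, 27, 8 and 15 peaks. By number of peaks, the names next to Klf6 included S1pr1, Arhgap31, Prkce and Galnt18 with 26 each and Ebf1 with 27. Their strongest peaks ran from 6.25-fold at Ebf1 to 8.17-fold at S1pr1, all above the 6.17-fold of Klf6.

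Peaks of the 10 genes came in runs. When all peaks of the list less than 12.5 kb apart were joined, a step chosen after the data were seen, they gave 11011 clusters, of which 23 held KLF peaks. The Klf13 cluster of 20 peaks, 5 of them assigned to the unnamed model AABR07004100.1, had 22.01 kb under peaks and was rank 27 by that measure. The upstream Klf9 group fell in a cluster of 23 peaks, 15 of them assigned to the unnamed model AABR07006576.1, at rank 29, and the cluster on the Klf9 start, with 10 peaks and 14.49 kb, was rank 64. Clusters of 19 peaks at Klf6 and 17 at Klf2 were ranks 51 and 54. By contrast, the largest cluster of Klf12 had 4 peaks and was rank 1288.

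Outside the 10 genes the family had less, a contrast that cannot be told apart from the choice of the 10 by their peaks. Of the whole KLF family of 18 genes, 14 had a peak, against 27.1% of protein-coding genes, and 10 of the 14 were chosen for having one. No peak carried the names Klf1, Klf5, Klf8 or Klf18, and Klf18 had no match in the gene table used. Of these, Klf1 is an erythroid factor and Klf5 a growth factor-induced gene of muscle and epithelium. The other 4 held 16 peaks, none of promoter class and none of 6-fold. Klf11, a Sin3A-binding relative of Klf10, had 11 peaks, more than 6 of the 10 chosen genes, with a strongest peak of 5.35-fold 8.16 kb upstream (chromosome 6, 43821604 to 43821970) and one of 4.43-fold over its TSS (43829693 to 43830448). Klf16 had 2 with 5.14-fold in exon 1 (chromosome 7, 12006557 to 12007147). Klf17 had 2 of at most 3.95-fold and Klf14 had 1 of 2.86-fold, all more than 20 kb from their TSS. Of 9 SP genes 5 had peaks, 18 in all. Sp3, a ubiquitous GC-box factor, had 8, with 8.13-fold at its promoter (chromosome 3, 59688405 to 59688999). Sp1 reached 3.93-fold, Sp2 4.55-fold, Sp4 2.54-fold and Sp9 4.53-fold, and Sp5, Sp6, Sp7 and Sp8 had none.

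**Figure D4:**
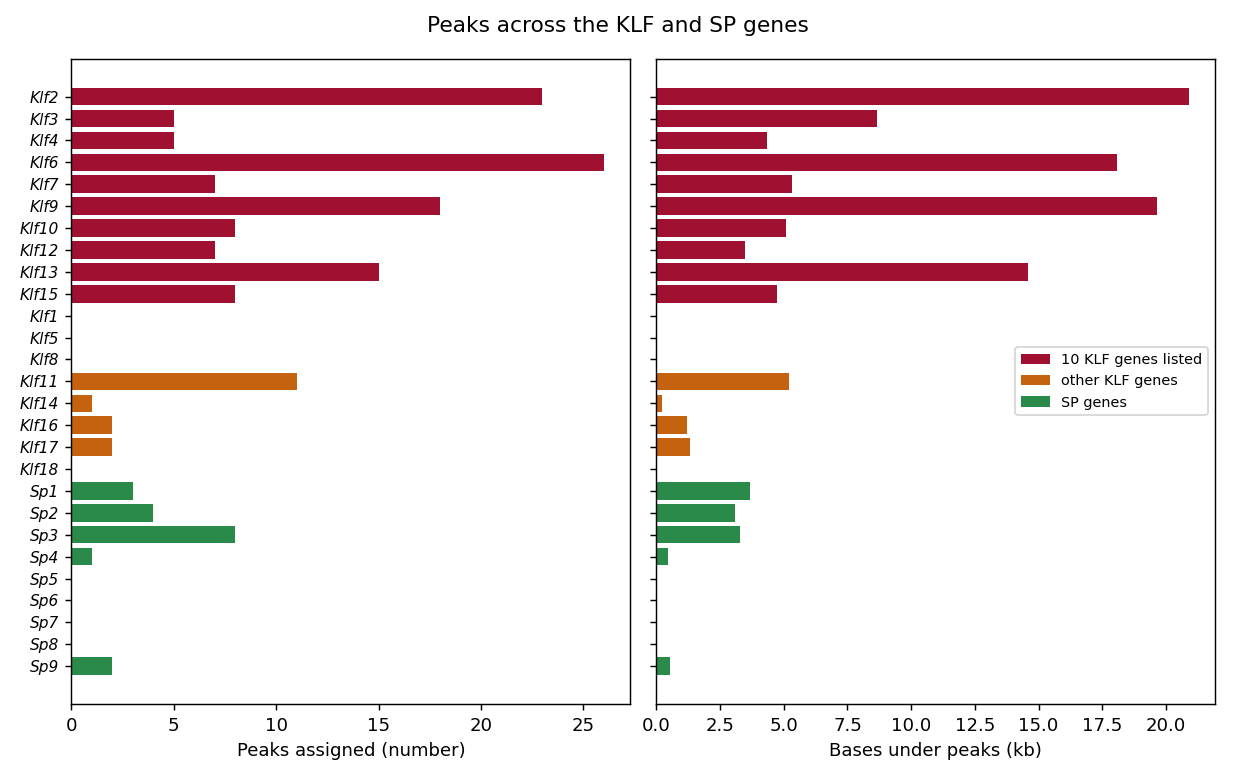
Number of peaks (left) and kilobases under peaks (right) for each of 18 KLF and 9 SP genes, with the 10 chosen genes in dark red. Klf6 had the most peaks, 26, Klf2 the most bases, 20.90 kb, and 8 genes had none.

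Genes that act with KLF factors were taken from lists of known partners, regulators and targets. These lists were chosen with earlier results of these data known. Their counts are therefore a description only, and no difference from the background was tested. They stand beside the 27.1% of protein-coding genes with any peak and the 9.87% with one of promoter class. Of 8 partner genes 4 had a peak and 2 a promoter-class peak, Ctbp1 and Ctbp2. Ctbp2, the corepressor bound by Klf3 and Klf12, had 18 peaks with 7.57-fold 33.0 kb upstream. Sin3a reached 5.0-fold, Sin3b 4.55-fold and Ctbp1 3.10-fold, while no peak carried the name of the acetyltransferases Ep300, Crebbp and Kat2b or of the ubiquitin ligase Wwp1.

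Of 18 upstream regulators 12 had a peak (background 27.1%) and 4 a promoter-class peak (Heg1, Tgfbr1, Smad2 and Smad3; background 9.87%). The glucocorticoid receptor gene Nr3c1, whose product induces Klf9 and Klf15, had 21 peaks with 8.76-fold 45.3 kb downstream. The MEF2 factors, which drive Klf2 and Klf4, had 7.34-fold at Mef2d, 6.68-fold at Mef2c and 6.29-fold at Mef2a. Heg1, an endothelial receptor of the pathway that restrains Klf2, had 6.60-fold, and the mechanically gated channel Piezo1 5.45-fold. Of the kinases that lead to MEF2, Map3k3 had 2 peaks, the stronger 4.93-fold in intron 1, and Map2k5 and Mapk7 had none. Krit1, Ccm2, Pdcd10 and Smad4 had none either.

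Of 14 genes known as targets of KLF factors 10 had a peak and 7 a promoter-class peak, against the same 27.1% and 9.87%. The endothelial target S1pr1, a sphingosine phosphate receptor, had 26 peaks, the strongest 8.17-fold and intergenic, 53.7 kb upstream of its TSS. Eng, a TGF-β co-receptor, had 16 with 7.27-fold, and Nos3, the endothelial nitric oxide synthase, 4 with 6.51-fold. Smad7, a target of Klf10, had 17 with 7.32-fold, and Acvrl1 9 with 5.62-fold. Myocd, a smooth muscle coactivator gene, reached 5.18-fold in an intergenic peak 89.6 kb upstream. The lowest of the 10 were Thbd, the endothelial thrombomodulin gene (4.83-fold), the metabolic genes Bcat2 (3.87-fold) and Slc2a4 (3.38-fold), and Edn1, which encodes endothelin (2.95-fold). No peak carried the names of the amino acid enzymes Bckdha and Prodh, the channel subunit Kcnip2 or the smooth muscle gene Tagln.

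Myocardium holds several cell types, and a ChIP signal from tissue cannot tell fewer marked cells from less mark per cell. Of 8 cardiomyocyte markers 5 had a peak (Actc1, Tnnt2, Tnni3, Pln and Mybpc3, from 4.08-fold to 7.04-fold) and Myh6, Ryr2 and Ttn had none. The 7.04-fold peak was intergenic and carried the name Pln from 143 kb upstream, and the next strongest was 5.25-fold at Actc1. The endothelial markers reached 7.61-fold under the name Kdr, in an intergenic peak 70.6 kb downstream of its TSS, and the 1 of 6 without a peak was Pecam1. Peaks were at 1 of 4 fibroblast, 2 of 4 smooth muscle and pericyte and 1 of 4 immune markers, where 27.1% of protein-coding genes had one. These lists too were chosen with earlier results of these data known. Which cells carry the KLF peaks was not tested.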

How the data were processed

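The 10 genes and all gene lists were chosen with earlier results of these data known. The authors deposited a peak list and an annotation of it. The submitters' processing notes name Bowtie2, MACS2, HOMER, SAMtools, deepTools, FastQC and Trim Galore and the build rn6, with versions not given in the sources used here. A path in the file header names a call at q 0.05, and peak names carry 1 library name. Whether the input served as background is not given in the sources used here.

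Fold enrichment is the authors' ratio for each peak. For p and q values the authors deposited −log10 values. The score column they deposited equals 10 times −log10 q without its decimals and was not used further, and distances to the TSS are the authors' deposited values. All are used only within this list. Sequencing depth is unknown, so no peak under a name means no call at this depth.

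Files were joined by peak name (Python 3.11.15, pandas 2.3.3). Start sites and strands were solved from peak centres and distances, a step tested on simulated data. A peak was over a TSS when its start and end enclosed it. Current GRCr8 gene symbols matched 6224 of the 8094 annotation names, older symbols 153 and neither 1717. All 10 genes matched, and shares of genes are over 23154 protein-coding genes of that table. A gene of the table with no matching name in the rn6 annotation could not count as having a peak, which can lower these shares. Coordinates are 1-based rn6 positions unless GRCr8 is named. With 1 library no p-value was computed. Named were all KLF and SP genes and up to 6 genes of each other list by strongest peak, with a few added after their values were seen (Map3k3, Thbd, Edn1, Bcat2, Slc2a4 and the cell-type markers). KLF genes with up to 6 peaks are given whole, others by the strongest 4, the nearest, the farthest and the widest. Alternatives were thresholds on q and fold, distances to the TSS and merging of peaks.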

Additional observations from a re-analysis of the deposited data

How the results depend on the processing

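All 10 KLF genes kept a peak at a −log10 q of at least 5, at a fold enrichment of at least 4 and within 10000 bp of the TSS, and 12 of the 14 KLF family genes with a peak did at either threshold. The number of peaks moved more. From 122 it fell to 63 at the q threshold, 78 at the fold threshold and 61 with peaks within 1000 bp merged. With a merging distance of 12.5 kb, added after seeing the data, it was 23. Counting every peak within 50 kb of a start site whatever its name, also added later, gave 117. Genes with a promoter peak were 4 by class, 6 within 1000 bp, 9 within 3000 bp, 7 by a peak over the TSS (added later), and 1, Klf6, by class at a −log10 q of at least 5. The median fold enrichment of 4.48 was 5.30 at the q threshold, 4.57 without Klf6 and 7.12 over the strongest peak of each gene. With 1 library of unknown depth, no replicate error could be given, and assignment by nearest TSS decides which gene a distant peak is counted for.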

Other observations

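Peaks with other names stood within 50 kb of 4 of the genes: 5 at Klf13, 3 at Klf2 and 1 each at Klf4 and Klf7. At Klf13 they raised the count from 15 to 20, and the strongest of them, assigned to the unnamed model AABR07004100.1, had 8.52-fold (chromosome 1, 124773736 to 124777705). At Klf9, 11 of its 18 peaks lay within that distance, and 19 peaks of the unnamed model AABR07006576.1, counted up to 100 kb from the outermost Klf9 peak, followed the far upstream group from 2.99 kb on, up to 7.24-fold (chromosome 1, 240809707 to 240811516). At Klf10, 3 of its 8 peaks lay within 50 kb of a start, so that its distant group makes up most of its count.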
